A study of Mus musculus with 4 samples.

Results

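The effect of medium from adipose tissue-derived stem cells (ADSCs) on hepatic stellate cells that were also given palmitic acid (PA) was read from 2 arrays, 1 hybridized with RNA of cells given PA and ADSC medium and 1 with RNA of cells given PA alone. Every probe that was no control and stood well above background on 1 or both of these arrays was taken, 29330 of the 41146 probes with a value on every array of the series. They gave 18751 genes to compare among the 26793 gene names on the array, each read from its probe with the highest mean level. The cells were IMS/N, a stellate line from livers of normal 129/Sv mice that was immortalized with SV40 virus. The series holds 1 array for each of its 4 conditions, which are control, PA, ADSC medium and the 2 treatments together, so neither group compared here has a replicate and no test was possible. The ADSCs came from inguinal subcutaneous fat of male C57BL/6J mice aged 8 to 10 weeks. The sources used here do not give the dose and time of PA, or whether cells without ADSC medium received its base medium, so products of the ADSCs and the base medium cannot be told apart. The contrast addresses what the ADSC medium did to cells under PA, which the series' title calls a restorative effect.

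Hepatic stellate cells store vitamin A in the quiescent state and become contractile, matrix-producing myofibroblasts when activated. Palmitic acid is a saturated fatty acid that is known to stress liver cells and to raise inflammatory genes in many cell types. Conditioned medium carries growth factors, cytokines and lipid mediators such as prostaglandins, which act on receptors of the receiving cell and alter genes through cAMP and its factor CREB, through ERK and immediate early factors, and through NF-kB.

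Short stretches of promoter are shown for genes on which the results turn, taken by symbol from the RefSeq promoter table on mouse build GRCm38.p6 and written 5′ to 3′ on the gene's own strand. The first 4 belong to genes that respond to cAMP and stood higher with the medium. Capitals mark TGACG, the core of the cAMP response element (CRE), on either strand; in the Areg promoter it lies within the full element TGACGTCA. The coordinates are chr9:121495695-121495794 (minus strand) for Cck, chr2:57124063-57124162 (minus) for Nr4a2, chr15:101266746-101266845 (plus) for Nr4a1 and chr5:91139493-91139592 (plus) for Areg.
Cck: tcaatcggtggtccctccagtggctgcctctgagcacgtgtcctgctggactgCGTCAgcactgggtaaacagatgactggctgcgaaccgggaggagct
Nr4a2: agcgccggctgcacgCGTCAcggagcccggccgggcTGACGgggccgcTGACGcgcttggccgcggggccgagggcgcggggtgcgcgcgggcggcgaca
Nr4a1: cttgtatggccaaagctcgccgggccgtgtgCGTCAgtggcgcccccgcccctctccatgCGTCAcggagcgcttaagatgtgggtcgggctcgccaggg
Areg: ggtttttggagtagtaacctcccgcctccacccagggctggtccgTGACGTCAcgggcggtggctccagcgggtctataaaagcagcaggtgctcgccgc

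The promoter of the chemokine gene Cxcl1 (chr5:90891129-90891228, plus) is shown for its pair of NF-kB motifs in capitals, written as GGG, any 2 bases and TTTCC, on either strand. Those of Acta1 (chr8:123894794-123894893, minus) and Myl9 (chr2:156775258-156775357, plus) belong to contractile genes that stood lower with the medium, and capitals there mark the CArG box, the motif that serum response factor binds.
Cxcl1: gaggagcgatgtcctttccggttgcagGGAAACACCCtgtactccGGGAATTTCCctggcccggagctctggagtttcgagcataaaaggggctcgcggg
Acta1: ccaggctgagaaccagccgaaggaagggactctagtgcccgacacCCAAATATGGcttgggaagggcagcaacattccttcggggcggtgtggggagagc
Myl9: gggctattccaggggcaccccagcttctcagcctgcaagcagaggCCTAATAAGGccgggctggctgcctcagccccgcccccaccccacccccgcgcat

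The arrays shared 1 slide and 1 scan, and between 67.9% and 70.3% of their spots were well above background. A level below is a quantile-normalized log2 intensity, and 4 levels in a row stand for control, PA, ADSC medium and both treatments, in this order. A difference is the level with PA and ADSC medium minus that with PA, on the log2 scale. Among probes printed on 10 spots, the SD of the difference between a pair of spots was 0.406 at levels under 3, 0.121 at levels of 5 to 7 and 0.0667 at levels of 9 to 11; this covers the measurement on an array and not the variation between cultures.

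The labelled cell type was compared with its markers. Of 14 stellate markers, 9 were well above background on each of the 4 arrays, among them Ecm1, a matrix protein abundant in liver (levels 14.75, 14.72, 15.03 and 14.94), and the stellate transcription factor gene Lhx2 (8.89, 8.96, 9.0 and 9.0). By their brightest probes, Lrat, the enzyme that stores retinol as ester, was not well above background on any array, nor were Gfap, Hand2, Reln and Hgf. Another probe of Hand2 was well above background on 1 or both of the arrays compared. None of the 9 but Pdgfrb and Des, described below, differed by 1.5-fold between the arrays compared. Of 14 markers of adipose stromal cells or adipocytes, 8 were well above background with PA and 8 with PA and ADSC medium, and their summed intensity was 18700 and 25000; without PA it was 19900 for control and 25000 for ADSC medium. Most of that sum came from Cd34, Ly6a, Lpl and Fabp4, while Adipoq, Lep, Plin1, Cfd and Dpp4 were not well above background on any array. Of 12 macrophage markers, 8 and 7 were well above background and the sums were 912 and 1450 (941 for control and 1290 for ADSC medium), with Adgre1, Ptprc, Clec4f and Tyrobp not well above background on any array. Cd14 alone carried that increase: without it the macrophage sum was 465 with PA and 340 with PA and ADSC medium, 5 of the 8 markers compared were lower and the list's median difference was -0.161. Of 10 biliary or epithelial markers, 7 and 7 were well above background and the sums were 2210 and 5880 (2450 and 4740 without PA), with Epcam, Cdh1 and Cldn4 not well above background and most of the sum from Spp1. Hepatocyte, endothelial and mesothelial sums were 251 against 270, 5440 against 5150, and 107000 against 107000. The part of other cells in the results was not tested, and in bulk RNA more cells of a type and more RNA per cell cannot be told apart.

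In the presence of PA, large differences lay mostly on the side of the genes higher with the medium. Of 18751 genes, 328 (1.75%) stood at least 2-fold higher and 95 (0.507%) at least 2-fold lower. At 4-fold the counts were 63 (0.336%) and 2 (0.0107%). By any amount, lower genes were more frequent, 10024 (53.5%) against 8695 (46.4%), and the median difference of all genes was -0.019. The lean towards higher genes thus belonged to the large differences. It was also stronger among bright genes. Where the brighter of the 2 arrays read 10 or more, 49 genes stood at least 2-fold higher and 2 lower. Where it read under 6, the counts were 147 and 70. At 1.5-fold, 985 of all genes (5.25%) stood higher and 698 (3.72%) lower. The shares of all genes given here are the base rates for the list counts below.

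**Figure D1:**
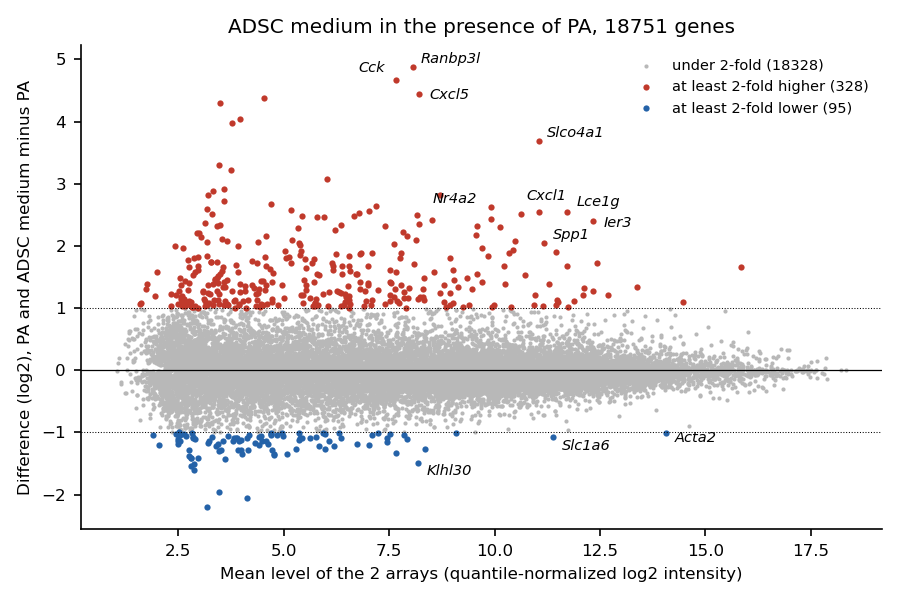
Difference between the PA and ADSC medium array and the PA array (log2, vertical axis) against the mean level of these 2 arrays (quantile-normalized log2 intensity, horizontal axis), 1 point per gene, 1 array per condition. Red points are the 328 genes at least 2-fold higher with the medium and blue points the 95 at least 2-fold lower; the dotted lines mark 2-fold, and blue points are almost absent above a level of 10, where Slc1a6 and Acta2 stand.

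The largest differences were those of a regulator of BMP signalling, a gut and brain peptide, a chemokine and an anion transporter. Ranbp3l, which exports BMP-activated Smad proteins from the nucleus, had levels of 8.20, 5.62, 9.61 and 10.49, so it was lowest with PA and highest with PA and ADSC medium, 29.2-fold apart. Cck, the gene of cholecystokinin, had levels of 6.52, 5.34, 9.15 and 10.00, a 25.4-fold higher level with the medium under PA and a 6.20-fold higher level without PA. Cxcl5, which attracts neutrophils, had levels of 6.67, 5.98, 8.47 and 10.42 and was 21.6-fold higher. The organic anion transporter gene Slco4a1 (10.62, 9.21, 11.87 and 12.90) was 12.9-fold higher. In each of these genes the array with PA read lowest and the array with both treatments highest, an order that choosing genes by this difference favours. The normexp background adds an offset to every signal, which shrinks the differences of dim genes most. It gave smaller differences for Ranbp3l (3.84 in place of 4.87), Cck (3.54 in place of 4.66) and Cxcl5 (3.64 in place of 4.44). For Slco4a1 it gave 3.61 in place of 3.69.

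Other genes of this group act at the cell surface or on lipids. The cholesterol exporter gene Abcg1 had levels of 7.76, 6.91, 8.55 and 9.41 (5.63-fold higher with the medium under PA). Olr1, a receptor for oxidized lipoprotein, had levels of 6.31, 4.55, 7.50 and 7.02 (5.54-fold), and Slc1a3, a glutamate transporter, 6.16, 5.43, 7.05 and 7.91 (5.58-fold by its brightest probe, with 3 probes between 1.28 and 2.48). Fpr2, a receptor for formylated peptides, had levels of 5.34, 4.18, 5.43 and 6.66, that is 5.61-fold higher under PA and 1.07-fold higher without it. With normexp the differences of Abcg1, Olr1, Slc1a3 and Fpr2 were 2.10, 1.27, 1.53 and 1.11 in place of 2.49, 2.47, 2.48 and 2.49. Crtam, an adhesion protein of lymphocytes, read 3.52, 3.35, 3.88 and 6.02 (6.37-fold, but 0.92 with the normexp background in place of 2.67). Lrrn3, a leucine-rich membrane protein, was 7.02-fold higher.

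Some genes were well above background with PA and ADSC medium but not with PA, so their folds are lower bounds. The R-spondin receptor gene Lgr6 (5.35, 2.34, 6.61 and 6.71) was at least 20.8-fold higher, though the mean of its detected probes gave 3.22 in place of 4.38. Prss35, a serine protease-like protein, read 2.63, 0.59, 4.10 and 6.36 and was at least 19.6-fold higher. Sod3, the extracellular superoxide dismutase, read 2.87, 1.69, 4.31 and 4.95, at least 7.35-fold higher. Others were the lysosomal peptide transporter gene Slc15a3 (at least 9.87-fold), Cfap161 (at least 9.35-fold), the phosphate transporter gene Slc17a1 (at least 7.03-fold) and Ntng1, a netrin (at least 6.03-fold by its brightest probe). A second probe of Ntng1 gave a difference of 0.48 in place of 2.59. None of these genes read above 6.71 on any array, and with normexp their differences lay between 0.43 and 1.36. Of the 328 genes 2-fold higher, 51 were such bounds, and of the 95 lower genes 20.

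Genes known to respond to cAMP and CREB stood higher as a list. By their brightest probes, all 18 that could be compared were higher with the medium under PA (46.4% of all genes were). Of these, 12 were higher by 1.5-fold or more (as were 5.25% of all genes), and the median was 0.705. Without PA the median was 0.407 and 7 were at least 1.5-fold higher. With detected probes averaged the median under PA stayed at 0.705, but Pde4d (-0.02) and Inhba (-0.01) were not higher. Crem, at 0.47, then fell short of 1.5-fold. With normexp the median under PA was 0.528, and Crem (0.41), Sik1 (0.42), Fosb (0.47) and Areg (0.25) fell short of 1.5-fold. Beside Cck, the members that stood farthest apart were the orphan nuclear receptors and regulators of G proteins. Nr4a2 had levels of 9.11, 8.61, 9.72 and 11.23 (6.17-fold higher). Nr4a1 had 11.72, 11.56, 12.43 and 13.28, a difference of 1.72. Gem, a small GTP-binding protein that restrains calcium channels, had 9.52, 8.70, 10.03 and 11.13 (a difference of 2.43). In all 3 the PA array read lowest, and the array with both treatments stood above the array with ADSC medium. The G protein regulator gene Rgs2 (8.83, 8.47, 9.61 and 9.80) differed by 1.33, the cAMP phosphodiesterase gene Pde4b (5.91, 5.99, 6.95 and 7.12) by 1.13 and the coactivator gene Ppargc1a (6.80, 5.77, 7.19 and 6.72) by 0.96. The phosphatase gene Dusp1 (0.81), the kinase gene Sik1 (0.72), Fosb (0.69), the growth factor gene Areg (0.66) and Crem, a repressor within the cAMP response (0.59), made up the rest of the 12.

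In the 250 bases before the start, 12 of the 15 list members with a RefSeq promoter held the CRE core TGACG on either strand (80.0%), as did 17.8% of all 32851 promoter windows and 27.9% of the 12316 compared genes with a window. The full TGACGTCA, which contains the core, stood in the promoters of Areg and Dusp1 and in 1.55% of windows. The list was drawn up from genes known to respond to CREB, so its share describes the list. Over all genes at least 2-fold higher with the medium, 24.2% of 207 held the core, no more than among all compared genes, and 19.1% of the 68 lower genes did. The full element stood in 0.966% of these higher genes, 1.47% of these lower genes and 2.73% of all compared genes. The AP-1 motif TGANTCA stood in the promoters of 12.6% of the higher genes, 5.88% of the lower genes and 6.08% of all compared genes. A match of letters does not show that a factor binds there.

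Immediate early genes, which growth factors and stress switch on within minutes, were partly higher. Of 24 compared, 6 reached 1.5-fold upwards (5.25% of all genes did) and none downwards. By any amount 18 were higher (46.4% of all genes were), and the median was 0.274 (0.113 without PA). Ier3, a survival gene, had levels of 11.17, 11.14, 11.79 and 13.53, so that the array with both treatments stood 2.40 above PA, and the array with ADSC medium was between them. Arc (12.19, 11.69, 12.49 and 12.96), a cytoskeletal gene of active neurons, differed by 1.27 and the zinc finger factor gene Egr2 (6.84, 6.91, 8.11 and 8.12) by 1.21. Egr2 read nearly the same on both arrays with ADSC medium, Arc did not. Of 15 outputs of the ERK pathway, 3 were at least 1.5-fold higher and none lower (median 0.224): the factor gene Etv1 (5.27, 4.70, 6.54 and 6.35; 1.65, or 0.79 with normexp), and the feedback inhibitors Spry2 (0.62) and Dusp6 (0.62).

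**Figure D2:**
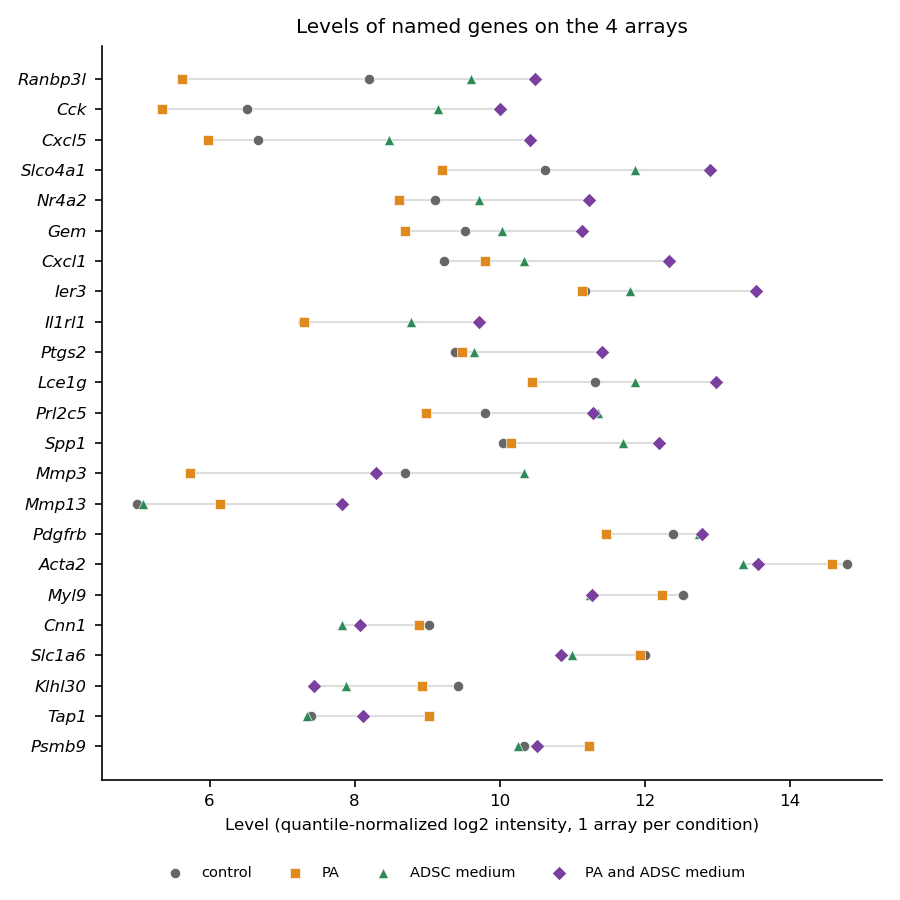
Levels (quantile-normalized log2 intensity, horizontal axis) of named genes on the 4 arrays, 1 symbol per array: grey circle control, orange square PA, green triangle ADSC medium, purple diamond PA and ADSC medium. Ranbp3l, Cck, Cxcl5 and Slco4a1 read lowest with PA and highest with both treatments, whereas Acta2, Myl9 and Cnn1 stood lower on both arrays with ADSC medium; a line joins the lowest and highest array of a gene, and there are no replicates.

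Secreted inflammatory genes stood higher in parts. Of 6 neutrophil chemokines and colony-stimulating factors that could be compared, 3 had a difference of 1.5-fold or more upwards and none downwards, with a median of 0.711, but 0.122 with the normexp background. Without PA the list's median was larger, at 1.104, and 4 of 5 were at least 1.5-fold higher; one of them was the dim granulocyte factor gene Csf3 (2.33, 2.88, 3.73 and 2.54), at 1.30 without PA and -0.34 under PA. The 3 higher genes under PA were Cxcl5, Cxcl1 and the platelet chemokine gene Ppbp, which had only a bound (at least 0.99 higher, but 0.21 with normexp). Cxcl1 had levels of 9.23, 9.79, 10.33 and 12.33 and was 5.81-fold higher with the medium under PA and 2.15-fold without it. Its promoter held 2 NF-kB motifs, which 1.41% of all promoter windows held at least once. The motif stood in 2.42% of the 207 genes at least 2-fold higher, 4.41% of the 68 lower ones and 1.74% of all compared genes. Of 21 CC chemokines and Cxcr3 ligands, 6 passed 1.5-fold in the higher direction and 2 in the lower (median 0.272). Ccl8, which attracts monocytes, had levels of 7.33, 6.85, 8.29 and 9.01 (difference 2.16). Ccl2, the main monocyte chemokine, had 14.56, 14.98, 14.78 and 15.94 (0.96) and Ccl7 13.71, 13.84, 13.81 and 14.72 (0.88). Both were bright, and both were within 0.22 between the arrays without PA. Ccl4 (3.48, 7.71, 4.99 and 8.89) and Ccl5 (11.38, 13.45, 11.88 and 14.26), already high with PA alone, were another 1.18 and 0.81 higher. Against these, the interferon-induced chemokine gene Cxcl11 (2.33, 6.39, 1.24 and 5.61) was 0.78 lower (difference -0.78).

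Genes of the interleukin-1 family and of prostaglandin synthesis were also among the higher ones. Of 9 interleukin-1 family genes, 5 reached 1.5-fold upwards and none downwards (median 0.634, or 0.255 with normexp; 0.50 without PA). Il1rl1, the receptor for interleukin-33, had levels of 7.29, 7.30, 8.78 and 9.72, a difference of 2.42, so PA alone left it at the control level. Il33 itself had 4.20, 4.62, 5.18 and 6.40 (1.79, or 0.79 with normexp), the receptor antagonist gene Il1rn 6.51, 6.60, 7.89 and 7.88 (1.29), and the receptor gene Il1r1 8.83, 8.76, 9.51 and 9.70 (0.93). Of 15 prostaglandin genes, 5 were at least 1.5-fold higher and none lower by as much (median 0.208). Ptgs2, the inducible cyclooxygenase, had levels of 9.38, 9.48, 9.65 and 11.41: the first 3 arrays lay within 0.27 of the control and the array with both treatments stood 1.93 above PA. Ptgs1, the constitutive enzyme, had 11.77, 11.23, 12.34 and 12.26 (1.02), with both arrays of ADSC medium above both others. Feedback genes of NF-kB did not follow as a list: of 22 compared, only Nfkbiz (8.05, 8.08, 8.53 and 9.32; 1.24), a nuclear coactivator of NF-kB, was at least 1.5-fold higher, and the median was 0.027. Of 12 genes of the interleukin-6 family, only Il6 (6.05, 8.31, 6.63 and 9.01; 0.71) was.

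Paracrine growth factor genes were higher in few members. Of 19 EGF, FGF and HGF type factors and receptors, 5 had a difference of 1.5-fold or more upwards and 1 downwards (median 0.147). Fgf10 (5.45, 5.35, 6.39 and 6.97; 1.62, or 0.88 with normexp) and Fgf7 (7.66, 7.21, 8.63 and 8.47; 1.26), both mesenchymal signals to epithelia, were among them, as was Ereg, a ligand of the EGF receptor (5.30, 5.60, 5.76 and 7.15; 1.55, or 0.85 with normexp). Btc, another ligand of that receptor, was the lower one (2.10, 4.0, 3.01 and 3.34; -0.66, or -0.06 with normexp). Of 13 angiogenic factors, 6 passed 1.5-fold in the higher direction and none in the lower (median 0.183), led by Angpt2, which loosens vessels (7.40, 6.29, 8.11 and 7.70; 1.41), and the co-receptor gene Nrp2 (12.86, 12.39, 13.15 and 13.28; 0.89); Vegfa differed by 0.18. Among 6 PDGF genes, the receptor genes Pdgfrb (12.39, 11.46, 12.74 and 12.79; 1.33) and Pdgfra (7.32, 6.91, 7.90 and 7.69; 0.78) stood higher, and in both the PA array read lowest. Of 17 BMP genes, Bambi, a decoy receptor (8.65, 8.31, 9.17 and 9.76; 1.45), Grem1, a BMP antagonist (11.32, 11.33, 11.93 and 12.44; 1.11), and Bmp7 (0.86, or 0.14 with normexp) were at least 1.5-fold higher and none as much lower, with a median of 0.064. Bmp7 was dim, and its 2 detected probes differed in direction (-0.39 and 0.86, with a mean of 0.24).

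Several genes of the matrix and its enzymes differed, most of them upwards. Spp1, the gene of osteopontin, had levels of 10.05, 10.16, 11.70 and 12.20 (2.04), high on both arrays with ADSC medium. Of 29 matrix glycoprotein and crosslinking genes, 5 reached 1.5-fold upwards and none downwards (median 0.143), Vcan (9.18, 8.88, 10.08 and 9.92; 1.04) among them. Of 9 small leucine-rich proteoglycans, 4 reached 1.5-fold upwards (median 0.402): Aspn, the gene of asporin (6.38, 4.72, 7.09 and 7.19; 2.47, or 1.30 with normexp), Omd (7.99, 6.30, 8.34 and 7.68; 1.38), Ogn (10.50, 8.91, 10.79 and 9.77; 0.86) and Dcn, the gene of decorin (6.57, 6.35, 7.33 and 7.07; 0.72). In all 4 the PA array read lowest. Omd and Ogn with both treatments stayed below their control level, Aspn and Dcn did not.

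Of 25 collagens, 5 had a difference of 1.5-fold or more upwards and 2 downwards, with a median of 0.087. The collagen VI chains stood out within the family, Col6a3 at 5.90, 5.89, 7.17 and 7.77 (1.88, or 1.22 with normexp), Col6a1 at 10.39, 9.86, 11 and 10.65 (0.79) and Col6a2 at 8.74, 8.51, 9.26 and 9.13 (0.62). The lower ones were Col5a2 (12.09, 12.48, 11.58 and 11.84; -0.64) and the dim Col13a1 (-0.61, or -0.02 with normexp). Of 18 metalloproteinases, 5 passed 1.5-fold in the higher direction and 2 in the lower (median -0.036, but 0.051 with the 75th percentile scaling). Mmp3, the gene of stromelysin, had levels of 8.69, 5.73, 10.34 and 8.29 (5.91-fold higher; a difference of 2.56, or 1.84 with normexp), so that with both treatments it was near control. Mmp13, a collagenase, had 5.0, 6.15, 5.08 and 7.83 (1.68): it was high only where PA was given, and highest with both. Mmp11 (10.35, 10.49, 10.15 and 9.77; -0.71) and Adamts5 (11.12, 10.84, 10.82 and 10.09; -0.75), an aggrecanase, stood lower. The plasminogen activator gene Plat (11.84, 11.50, 12.22 and 12.72; 1.21) and its inhibitor Serpinb2 (5.01, 5.31, 5.31 and 6.54; 1.23) were both higher, while the median of 22 TGF-beta targets was 0.065, and 3 of them reached 1.5-fold upwards and none downwards.

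**Figure D3:**
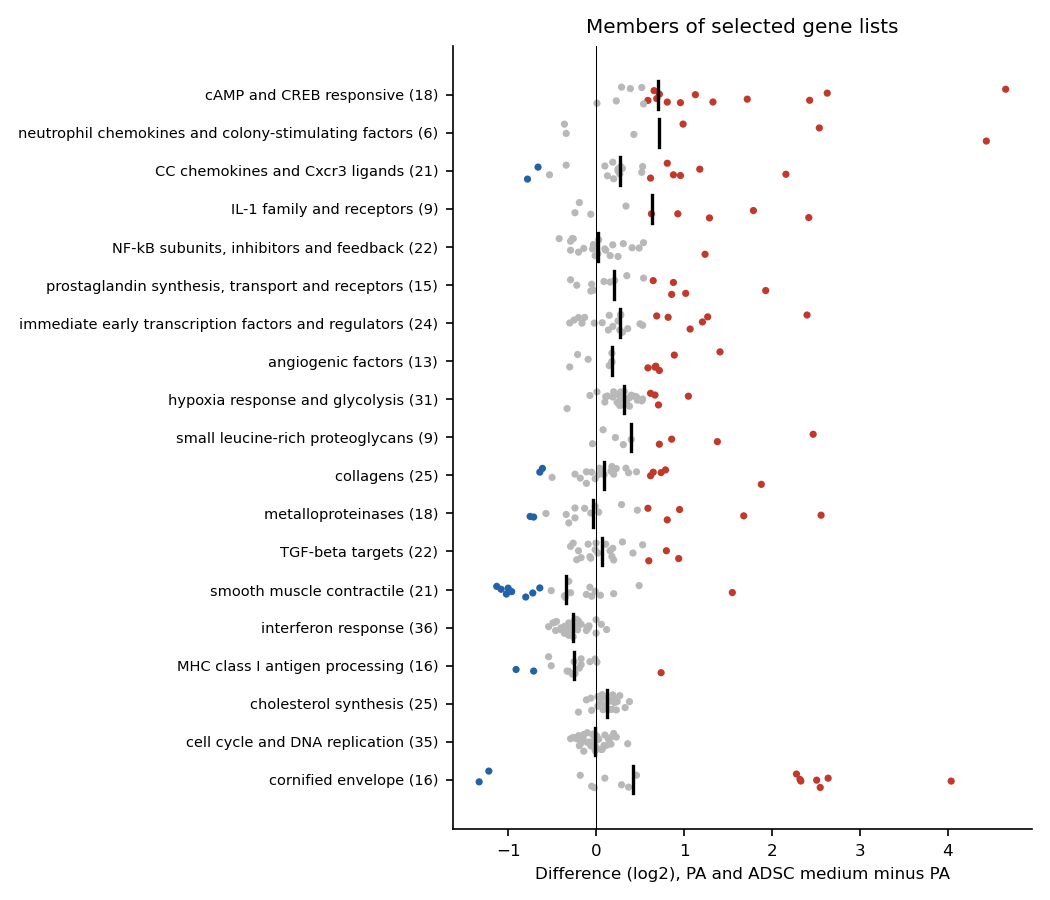
Difference between the PA and ADSC medium array and the PA array (log2, horizontal axis) for the members of selected gene lists, 1 point per gene, with the number compared in brackets. Red and blue points are at least 1.5-fold higher or lower, grey points neither, and black bars are list medians; the cAMP list has its 18 points at or above 0 (median 0.705), and the interferon list is narrow with a median of -0.259. Vertical scatter within a row has no meaning.

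The clearest list of lower genes was the contractile apparatus of smooth muscle, which activated stellate cells share. Of 21 compared, 17 were lower, including 8 that reached 1.5-fold (3.72% of all genes did), 1 was as much higher, and the median was -0.347; without PA the median was -0.345 and 6 were at least 1.5-fold lower. Acta2, the gene of alpha-smooth muscle actin, had levels of 14.78, 14.58, 13.35 and 13.56 and was 2.02-fold lower with the medium under PA and 2.70-fold without it, though its 4 probes ran from -1.02 to -0.15 under PA. The paralog Acta1 had 10.39, 10.04, 8.88 and 9.05 (-1.0) and Actc1 11.84, 11.54, 10.72 and 10.82 (-0.72). The probes of these 3 actins share no run of more than 5 of their 60 bases. In each of them both arrays with ADSC medium read below both arrays without it.

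The same order held for the myosin light chain gene Myl9 (12.52, 12.23, 11.25 and 11.27; -0.96), the calponin gene Cnn1 (9.02, 8.88, 7.83 and 8.08; -0.80) and the gene of transgelin, Tagln (13.90, 14.14, 12.80 and 13.50; -0.64). Lmod1, which nucleates actin filaments, had 8.06, 7.98, 7.54 and 6.90 (-1.08). Des, the gene of desmin, was dim (3.63, 4.51, 3.47 and 3.37), and its -1.13 was -0.25 with normexp. Itga8, an integrin of contractile cells, was the higher one (3.36, 2.72, 4.26 and 4.27; 1.55, or 0.30 with normexp). A CArG box stood in the promoters of 4 of the 17 list members with a window, Acta1, Actc1, Myl9 and Vcl, and in 1.47% of all windows. It stood in 1.53% of all compared genes, 1.93% of the 207 genes at least 2-fold higher and 0 of the 68 lower ones. The share of 4 in 17 thus describes the list and not the lower genes as a whole. Nexn, an actin-binding protein outside the list, read 8.16, 8.48, 7.88 and 7.38 and was 2.15-fold lower.

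Outside the contractile list, the genes that stood lowest with the medium had varied roles. Klhl30, a kelch protein, had levels of 9.43, 8.93, 7.88 and 7.44 (2.80-fold lower under PA, 2.92-fold without). The glutamate transporter gene Slc1a6 had 12, 11.93, 11 and 10.85 (2.11-fold and 2.01-fold). Nup210, a nuclear pore protein, had 8.21, 8.97, 7.70 and 7.71 (2.40-fold), and Sox13, a transcription factor, 5.44, 6.63, 5.51 and 5.50 (2.19-fold): there the PA array stood above the 3 others. Klhl30 and Slc1a6 differed alike on both pairs of arrays, Sox13 on this pair. Ifnlr1, the receptor for interferon lambda, was 2.31-fold lower, Slc16a6, a carrier of the monocarboxylate family, 2.23-fold, Klhl23 2.33-fold, Lysmd4 2.27-fold, Tspyl4 2.02-fold and H1f3, a linker histone, 2.06-fold. The largest lower bounds were at dim genes, such as Tcstv3, expressed in early embryos (3.12, 4.31, 3.0 and 2.06; at least 4.60-fold lower, but -0.30 with normexp), Kcnmb1, a potassium channel subunit of smooth muscle (at least 2.85-fold, -0.15), and the receptor gene Il23r (at least 2.19-fold, -0.13).

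The listed interferon response genes stood slightly lower with the medium under PA. Of 36 compared, 33 were lower by any amount (53.5% of all genes were) and none by 1.5-fold. The median was -0.259 against -0.132 without PA. Xaf1, an apoptosis regulator, had levels of 9.10, 11.04, 8.52 and 10.50 (-0.54), the GTPase gene Iigp1 8.46, 11.43, 8.30 and 10.94 (-0.49), and Mx2, an antiviral effector, 9.04, 12.45, 8.88 and 12.13 (-0.32). The summed intensity of the list was 74500, 282000, 66500 and 232000, so both arrays with PA stood above both without it. The list does not hold all interferon-induced genes. Outside it, Tgtp1 (-0.73) and Nmi (-0.68) were lower by at least 1.5-fold. They were picked from the authors' deposited probes, described below, which were all lower, so higher genes outside the list were not looked for. Of 16 genes of MHC class I antigen processing, 14 were lower (53.5% of all genes were), including 2 that reached 1.5-fold (median -0.247, and -0.045 without PA): the peptide transporter gene Tap1 (7.40, 9.02, 7.34 and 8.11; -0.91) and the immunoproteasome gene Psmb9 (10.33, 11.23, 10.25 and 10.52; -0.71). H2-M3, a nonclassical class I gene, was higher (11.15, 11.85, 11.49 and 12.59; 0.74).

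Genes of the hypoxia response and glycolysis stood higher by small amounts. Of 31 genes of these pathways, 29 were higher (median 0.315), as were 46.4% of all genes. Of these 29, 4 reached 1.5-fold (5.25% of all genes did): the vasodilator peptide gene Adm (9.88, 9.46, 10.33 and 10.51; 1.05), the lactate exporter gene Slc16a3 (10.34, 11.55, 11.64 and 12.26; 0.71), the glucose transporter gene Slc2a1 (0.67) and Hk1 (0.62). Other metabolic and housekeeping lists had smaller medians. Cholesterol synthesis (25 genes, median 0.122), fatty acid synthesis (21, median 0.170) and the unfolded protein response (21, median 0.083) held no gene at 1.5-fold in either direction, nor did 35 cell cycle and DNA replication genes (median -0.013, but 0.012 with the 75th percentile scaling). The 14 housekeeping genes had a median of 0.036. Of 30 genes of ATF4 and amino acid stress, the glutamine transporter gene Slc38a2 (14.14, 13.68, 14.33 and 14.67; 0.99) and the hormone gene Stc2 (0.99) were higher by 1.5-fold, with a median of -0.060. Among 23 fatty acid oxidation and PPAR genes (median 0.041), Fabp4, a fatty acid carrier (11.46, 10.95, 12.07 and 11.99; 1.04), was higher, and Pparg (9.19, 9.36, 8.73 and 8.68; -0.68) and the peroxisomal enzyme gene Ehhadh (-1.14, or -0.33 with normexp) were lower. Of 27 NRF2 and antioxidant genes, 4 were at least 1.5-fold higher (median 0.229): Sod3, and Gsta2 (1.15, or 0.37 with normexp), Gsta1 and Gsta4 of the glutathione transferases. The probes of Gsta1 and Gsta2 share a run of 20 bases, so these paralogs are uncertain. Sesn1 (10.73, 9.95, 11.15 and 11.48; 1.54), a stress sensor, was the higher one of 20 p53 targets and Perp (-0.66) the lower one. Of 15 heat shock genes, Hspa1b (8.06, 7.79, 8.21 and 9.36; 1.57), Hspa1a (0.68) and Hsph1 (0.60) were higher. Hspa1a and Hspa1b are paralogs, whose probes here share no run of more than 4 of 60 bases.

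The remaining lists were mixed. Of 16 neuropeptide and granule genes, 3 were at least 1.5-fold higher, among them the enkephalin gene Penk (6.02, 5.53, 6.66 and 7.21; 1.68, or 1.05 with normexp), and 4 were as much lower, among them the natriuretic peptide gene Nppb (6.32, 6.27, 5.61 and 5.29; -0.98) and the endothelin gene Edn1 (7.89, 7.72, 7.55 and 7.05; -0.66). Of 21 Wnt genes 3 were higher and 3 lower, of 13 complement genes 2 and 1, of 23 amino acid transporters 4 and 2, and of 9 IGF genes 1 and none. Of macrophage markers, Cd14, the co-receptor for endotoxin (9.07, 8.80, 9.81 and 10.11; 1.31), was higher and the lysozyme gene Lyz2 (-0.88) and Itgam (at least 0.68 lower, a bound of -0.68) were lower. The transcription factor gene Sox9 (8.04, 7.65, 8.98 and 8.95; 1.30) was higher and the keratin gene Krt7 (9.19, 8.64, 8.31 and 7.87; -0.77) lower. Both proliferin genes on the array, Prl2c5 (9.80, 8.98, 11.35 and 11.28; 2.30) and Prl2c3 (9.24, 8.47, 10.73 and 10.65; 2.18), were higher on both arrays with ADSC medium; their probes share a run of 18 bases and the copies are uncertain.

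Genes of the cornified envelope of skin were split. Of 16 compared, 7 were at least 2-fold higher (1.75% of all genes were) and 2 lower (0.507% of all genes). The median was 0.419, but 0.056 with no filter on dim probes. The lower ones were Crct1 and Cdsn, the gene of corneodesmosin (5.19, 6.44, 4.61 and 5.22; -1.22), whose level was highest with PA.

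Some higher genes were neighbours on a chromosome; these regions were chosen after the values were seen. In the epidermal differentiation cluster on chromosome 3 (92025707 to 93024700, mm9), which holds many such genes, 10 of 23 compared genes were at least 2-fold higher and 1, Crct1 (7.75, 8.31, 7.26 and 6.99; -1.33), lower. The consecutive compared genes Lce1e, Lce1f, Lce1g, Lce1h, Lce1i, Lce1j and Kprp differed by 2.28 to 2.64. The bright ones were Lce1g, at 11.31, 10.44, 11.87 and 12.98 (2.52 with normexp), and Lce1i, at 10.20, 9.36, 10.73 and 11.88 (2.44 with normexp). With normexp the differences of Lce1f (1.94), Lce1h (1.39), Lce1e (1.03) and the dim Kprp (4.91, 3.89, 6.35 and 6.46; 0.95) were smaller, and Lce1j gave 2.01. Their flanking neighbours Lce1b (0.29) and Lce1l (-0.05) did not share the difference. Among the probes of Lce1b and of Lce1e to Lce1j, pairs shared runs of 4 to 17 of 60 bases with a median of 5, and a second probe of Lce1g gave 0.57. Transcripts of such copies can still bind each other's probes, so the members are uncertain one by one. Sprr1a, a small proline-rich envelope protein, had 7.72, 8.43, 8.97 and 10.75 (2.32), and Sprr1b (1.77, 1.80, 3.88 and 6.11) was at least 16.4-fold higher (a difference of 4.04, or 1.11 with normexp), while Sprr2a1, Sprr2b, Sprr2e and Sprr2g differed by 0.06 to 0.31.

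On chromosome 5 (91190205 to 91787007), the CXC chemokine and EGF ligand cluster held Cxcl5, Ppbp, Cxcl1, Ereg, Areg and Btc, and 3 of its 9 compared genes were at least 2-fold higher. Mthfd2l, a folate enzyme gene between Cxcl1 and Ereg, differed by -0.14. On chromosome 11 (81850650 to 81990395), Ccl2, Ccl7 and Ccl8 were at least 1.5-fold higher and Ccl12 (0.13) was not.

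The same contrast on the arrays without PA, ADSC medium against control, shares no array with the contrast under PA. There 97 of 18198 genes were at least 2-fold higher (0.533%) and 22 at least 2-fold lower (0.121%). Of the 328 genes 2-fold higher under PA, 320 had a value without PA; 291 of them were higher there too, 157 (49.1%) by at least 1.5-fold, as were 2.29% of all genes compared in both, and 1 was as much lower. Their median was 1.38 under PA and 0.58 without it, and in 308 the difference was larger under PA. The genes were chosen by their difference under PA. Of the 95 lower genes, 86 had a value; 74 were lower without PA, 16 (18.6%) by at least 1.5-fold against 1.26% of all, with medians of -1.13 and -0.29. Of the 63 genes 4-fold higher, 62 were higher without PA and 49 by at least 1.5-fold. Across the 17355 genes well above background on all arrays, Pearson's r between the differences was 0.49 and Spearman's rho 0.38, as a description over genes, which are not independent replicates.

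**Figure D4:**
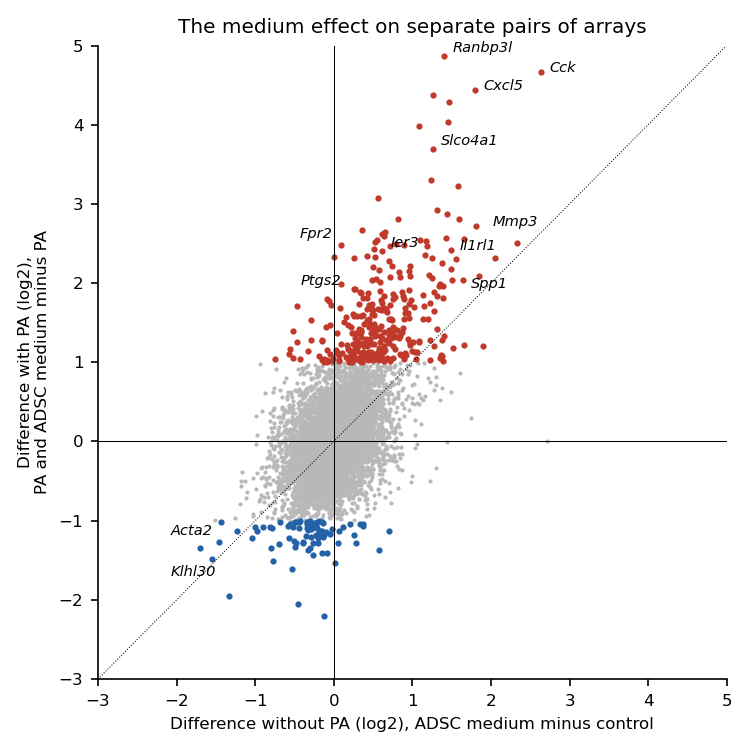
Difference with ADSC medium under PA (log2, vertical axis) against the difference without PA (ADSC medium minus control, log2, horizontal axis), 1 point per gene with a value in both, on arrays that share no sample. Red points are genes at least 2-fold higher under PA and blue points at least 2-fold lower; of the red ones 291 of 320 lie right of 0, most above the dotted line of equal differences, while Acta2 and Klhl30 lie near that line.

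Among the genes 4-fold higher under PA, the 2 pairs of arrays differed in where the PA array stood. These genes were chosen by their difference from the PA array, and that choice by itself favours a low PA level. Among the 63 genes 4-fold higher, median levels were 6.02 for control, 4.55 for PA, 7.05 for ADSC medium and 7.19 for both, so the 2 arrays with ADSC medium were 0.14 apart and the 2 without it 1.47. The difference under PA and the difference of PA from control share the PA array, and a low reading on that array alone enters both. Genes for which the array with both treatments alone stood high were Ptgs2 and Ccl2, and genes with both ADSC medium arrays at about the same height were Il1rn, Egr2, Prl2c5 and Pdgfrb. A few genes differed the other way without PA by small amounts: of those 2-fold higher under PA, Cyp2c66 and Cyp2c65, drug-metabolizing P450 enzymes, read 5.45, 5.04, 4.90 and 6.21 (1.17 and -0.55), and 5.98, 5.89, 5.47 and 6.95 (1.05 and -0.51). The dim gene Lgsn also did (1.11 under PA, or 0.12 with normexp, and -0.57 without PA).

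The authors' deposited table for this contrast lists 920 probes as up with PA and down with PA and ADSC medium. Its label names no control, so up may mean only above the array with both treatments. The table was chosen by the study on these same samples, so its direction is no independent evidence. On the levels used here all 920 were lower with the medium, by -0.24 to -2.68 with a median of -0.77 (1.71-fold), of which 871 reached 1.5-fold (as did 5.96% of all 41146 probes) and 221 reached 2-fold. Against control, 698 were higher on the PA array, 220 by at least 1.5-fold (5.65% of all probes were), and 27 were as much lower (5.29% of all probes were), a contrast that shares the PA array. Most of these probes were dim: their median level on the PA array was 3.72 against 5.23 for all probes, 202 (22.0%) were well above background on neither of the 2 arrays, and 72 lay over a level of 9. With the normexp background the median was -0.14 and 100 were at least 1.5-fold lower. Of the 504 well above background on all 4 arrays, 417 were also lower without PA, 53 by at least 1.5-fold (0.956% of all such probes were) and 4 as much higher (1.73% were), with a median of -0.22 there and -0.71 under PA.

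**Figure D5:**
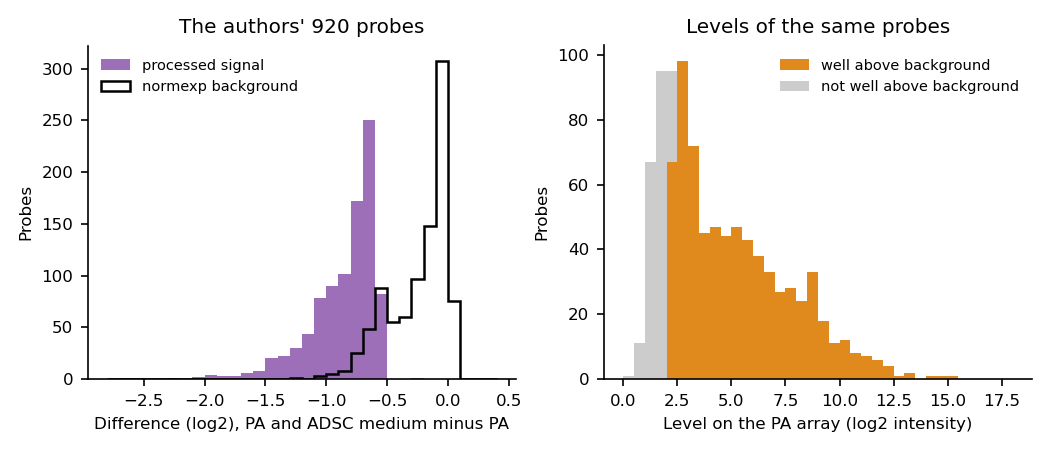
The 920 probes of the authors' deposited table. Left, number of probes by difference between the PA and ADSC medium array and the PA array (log2), from the processed signal (purple, median -0.77) and from the normexp background (black line, median -0.14). Right, number of the same probes by level on the PA array (log2 intensity), with the probes not well above background on that array in grey; most lie under a level of 5.

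The listed probes with the largest differences were dim. Dmrtc1c1 read 2.52, 2.92, 2.34 and 0.24, and Opn4, the gene of melanopsin, 2.46, 3.16, 1.97 and 0.64, with neither well above background on the array with both treatments. Pygo1, a Wnt coactivator, was the brightest of the 10 that differed most, at 4.18, 5.15, 3.73 and 3.10 (-2.05, or -0.56 with normexp). Among listed probes over a level of 9 on the PA array, chosen after the values were seen, the largest differences were those of Slc1a6, Acta2, Tspyl4, Acta1 and Myl9. Gadd45g, a growth arrest gene, had 14.79, 15.07, 14.39 and 14.17, Sall4, a transcription factor of stem cells, 9.34, 10.02, 9.42 and 9.18, and Ptx3, the gene of a pentraxin, differed by -0.82. The table held 3.43% of all gene names on the array. Of the gene lists, it held 8 of 22 contractile genes (Acta1, Acta2, Actc1, Cnn1, Des, Lmod1, Myl9 and Tagln), 4 of 28 Wnt genes, 4 of 22 neuropeptide and granule genes, 3 of 20 metalloproteinases, 3 of 12 macrophage markers, 2 of 16 MHC class I genes (Tap1 and Psmb9), 1 of 36 interferon genes (Xaf1) and 1 of 30 collagens (Col5a2). It held none of the cAMP, NF-kB, prostaglandin, cholesterol or cell cycle genes. Of the contractile genes in it, Acta2, Acta1, Actc1, Cnn1, Lmod1 and Myl9 read lower with PA than in control on these levels. The label of the table does not name that comparison.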

How the data were processed

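Total RNA of 4 IMS/N cultures, 1 per condition, was extracted with ISOSPIN Cell & Tissue RNA, per the labels' protocols, and hybridized to one-colour Agilent arrays of design 014868, with positions on mm9. Per the file headers, spots were read by Feature Extraction 12.1.1.1 (protocol GE1_105_Dec08). The deposited value used is each spot's processed signal, an intensity from which the authors' software had already subtracted background, per the file headers; it was not normalized between arrays. The mean and background intensity of each spot, also deposited, served for the normexp alternative. The series' design notes state quantile normalization, and the submitters' processing notes name R 3.5.1. The sources used here give no threshold for the authors' deposited list of 920 probe names.

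Control spots and 82 to 104 outlier spots per array were left out, spots of a probe were averaged on the log2 scale, and the 4 arrays were quantile-normalized with limma 3.58.1 in R 4.3.3. Of 41174 probes, 28 lacked a value on some array and were left out; no spot was saturated. The Feature Extraction software flags spots as well above background, and a probe needed that flag on over 50% of its spots. RefSeq accessions gave the symbol of 28680 probes and changed 635 array names; 9187 of the 26793 names had several probes, and the brightest stood for the gene. Where a gene was well above background on 1 of the 2 arrays (852 genes), the dimmer value was raised, if needed, to that array's lowest level well above background (2.07 for PA, 2.11 for PA and ADSC medium), and the fold is a bound. With 1 array per condition no p-value was computed, and the number of arrays limits the precision. Further steps used Python 3.11.15, pandas 2.3.3, numpy 2.4.6 and matplotlib 3.10.9, and the normalization was tested on simulated data.

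The contrast, the 40 pathway lists and 7 marker lists (916 entries, 905 on the array), and the rule for named genes were chosen with earlier results of these data known. Named were up to 20 genes in each direction with the largest difference among those well above background on both arrays, at least 2-fold, and at least 1.5-fold the same way under normexp, 75th percentile scaling and the mean of detected probes (144 higher and 15 lower passed); the 8 largest bounds each way; up to 6 members of each list by size of difference; the 10 listed probes that differed most; and the 8 largest differences the other way without PA. Clone names and provisional symbols were passed over in picking the largest differences, bounds and listed probes, and not every gene picked is printed. The alternatives were the normexp background (offset 50), scaling to the 75th percentile, quantile normalization of the 2 arrays alone, the mean of a gene's detected probes, no filter on dim probes, a filter on both arrays, and a 1.5-fold threshold. Promoters were matched by symbol to the RefSeq table on GRCm38.p6 and searched over the 250 bases before the start.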

Additional observations from a re-analysis of the deposited data

Results flagged for a closer look

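Mcoln3, a cation channel of endosomes and lysosomes, differed with ADSC medium in opposite directions under PA and without it. Its levels were 2.94 for control, 3.78 for PA, 3.64 for ADSC medium and 2.65 for PA and ADSC medium, a difference of -1.13 under PA and of 0.70 without PA. The difference between the 2 contrasts was not tested, since each condition has 1 array. With the normexp background the difference under PA was -0.17.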

How the results depend on the processing

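The counts of genes past 2-fold depended on how dim probes were treated. Against 328 higher and 95 lower genes, the normexp background gave 96 and 4, no filter on dim probes 742 and 479, and a 1.5-fold threshold 985 and 698. With the 75th percentile scaling the split was 402 higher against 60 lower. The 63 genes 4-fold higher were 16 with normexp and 112 with no filter. The other alternatives kept all 3 counts within 1.5 times. All 328 and 95 genes kept their direction under normexp, 178 and 19 of them by at least 1.5-fold, and all were at least 1.5-fold with the 75th percentile scaling. The genes named for the largest differences had to keep their direction under normexp, 75th percentile scaling and the mean of detected probes. For them a stable sign was thus set by the rule. Under these alternatives 5 named genes changed sign, but none of the 192 at least 1.5-fold apart did. The medians of 10 of 47 lists did, all between -0.059 and 0.194 at first; the larger turns were those of the PDGF list (0.194, or -0.068 when detected probes were averaged and -0.074 with no filter), the IGF list (0.066, or -0.070 and -0.016), and complement (0.008, or -0.094 when both arrays had to be well above background). The adipose marker median was -0.004, or 0.322 under 75th percentile scaling. Of 317 named differences, 176 moved by more than the spread of spots under normexp, 63 under the mean of detected probes and 13 under 75th percentile scaling. Dim genes are the least precise, with a spot SD of 0.406 at levels under 3. No paired analysis was possible because each condition has 1 array. Variation between cultures could not be measured, and leaving out an array would leave no comparison.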
